A study of Mus musculus with 20 samples.

Results

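Nxnl1 and Nxnl2 are the 2 mouse genes for the rod-derived cone viability factors, and they were chosen by their gene symbols in the tables of retinal RNA sequencing at postnatal day 2 (P2) and postnatal day 21 (P21). Both genes were listed at both ages, so they make 2 of the 566 genes at P2, 2 of the 1497 at P21 and 2 of the 1865 genes listed at either age. RNA came from whole retina of mice on a C57BL/6J background with 5 genotypes. CrxRip/+ and CrxRip/Rip mice carry CrxRip, a dominant mutation of the homeobox gene Crx, on 1 or both alleles. Crx-/- mice are null for the same gene, Nrl-/- mice are null for the leucine zipper factor of rod fate, and the last genotype is wild type. Each genotype had 2 samples at each age, each pooled from 2 retinas, which gives 20 samples in 10 groups. Whole retina holds every retinal cell type, so fewer photoreceptors and less RNA per photoreceptor cannot be told apart in any value below.

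Rods and cones are the light-sensing cells of the retina, and cones survive poorly once rods are gone. Nxnl1 encodes RdCVF, a short protein with a thioredoxin fold that rods secrete, and by alternative splicing a longer form, RdCVFL, that acts as a thioredoxin inside photoreceptors. The short form binds basigin on cones, which sits with the glucose transporter GLUT1, and it raises glucose uptake and aerobic glycolysis there. Nxnl2 encodes a related pair of proteins, and mice without either gene lose photoreceptor function with age. CRX and the related OTX2 bind and activate photoreceptor gene promoters in both rods and cones, whereas NRL turns on rod genes and, through Nr2e3, holds cone genes down. Photoreceptors without NRL become cone-like.

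The promoters are shown because the genotypes alter CRX and NRL, which bind photoreceptor promoters. Nxnl1 (NM_145598) lies on chromosome 8, minus strand, at 71560555 to 71566601, and Nxnl2 (NM_029173) on chromosome 13, plus strand, at 51171022 to 51175188 (GENCODE on GRCm38). The annotated model that matches the Nxnl1 transcript has 2 exons, and a second model with 3 exons splits the last one. The matching Nxnl2 model has 2 exons and a second model is a single exon. No other annotated gene overlaps either gene, and none of their nearest neighbours (Tmem221 and Slc27a1 beside Nxnl1, Spin1 and Gm44341 beside Nxnl2) was in the tables. Each gene has 1 value per sample under 1 RefSeq accession, and no source says whether it covers 1 transcript or the whole gene, so the short and long forms were not told apart. The RefSeq promoter table (GRCm38.p6) gives 250 bases before and 50 after its own start of each gene. The GENCODE models start elsewhere in these stretches, at base 299 for both Nxnl1 models and at bases 248 and 285 for those of Nxnl2, so nearly all of the Nxnl1 stretch lies before its GENCODE start. The sequences are on the strand of the gene, with motif matches in capitals.
Nxnl1, chr8:71566600-71566899, minus strand: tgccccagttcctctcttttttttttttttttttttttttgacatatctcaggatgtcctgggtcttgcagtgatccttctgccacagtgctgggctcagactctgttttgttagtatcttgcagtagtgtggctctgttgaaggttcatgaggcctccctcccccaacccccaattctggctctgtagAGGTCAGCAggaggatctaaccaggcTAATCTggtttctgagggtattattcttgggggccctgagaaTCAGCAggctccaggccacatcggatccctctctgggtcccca
Nxnl2, chr13:51170775-51171074, plus strand: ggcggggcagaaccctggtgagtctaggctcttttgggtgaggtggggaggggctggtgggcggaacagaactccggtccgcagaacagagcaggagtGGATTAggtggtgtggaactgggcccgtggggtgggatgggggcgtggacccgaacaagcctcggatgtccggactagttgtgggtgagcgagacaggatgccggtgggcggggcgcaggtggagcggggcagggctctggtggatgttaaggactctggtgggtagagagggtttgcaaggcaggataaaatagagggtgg

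The letters searched, on both strands, were TAATCC (the core that CRX and OTX2 prefer), TAATTA (a homeodomain core), TGCTGA (part of an NRL site) and TGACCT (part of a nuclear receptor site). TAATCT, a variant of the CRX core, was added after the sequences had been read. The Nxnl2 promoter held 1 match, the reverse complement of TAATCC at bases 99 to 104. The Nxnl1 promoter held no TAATCC, 1 TAATCT at bases 216 to 221, the reverse complement of TGCTGA at bases 193 to 198 and again at 258 to 263, and that of TGACCT at bases 190 to 195, which overlaps the first of these. Of 32851 RefSeq promoters of the same length, 7.06% held TAATCC, 8.19% TAATCT, 5.29% TAATTA, 19.5% TGCTGA and 16.3% TGACCT, so each match is common by itself. GC content was 50% in the Nxnl1 promoter and 63.3% in that of Nxnl2, with a median of 52.7% over all promoters.

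Values are FPKM, fragments scaled to transcript length and to the mapped fragments of the library, rounded to 1 decimal, and the read depth behind them is unknown. Both tables list only genes that met the authors' cut-offs for a difference between genotypes, so they are selected on the outcome, and calls are read against the share of all listed genes called in the same comparison. A change is given on the log2(FPKM + 1) scale, where folds of low genes come out too small, and a gene is called at an adjusted p under 0.05 (limma, adjusted by Benjamini-Hochberg over the table of that age). The SE of a change was 0.16 for both genes at P2, and at P21 it was 0.27 for Nxnl1 and 0.13 for Nxnl2. No source says whether the 2 samples of a group came from separate animals, so p-values measure the spread between these samples. Nrl, which was targeted in 1 genotype, was at 0.1 and 0.1 FPKM in Nrl-/- samples against 69.4 and 81.0 in wild type at P2, and at 0.2 and 0.2 against 466.1 and 427.6 at P21. The Crx level does not check the Crx alleles. As for cell types, 10 of 15 rod genes and 10 of 14 cone genes of the marker lists were in the P2 table, and 15 of 15 and 14 of 14 in the P21 table. Of 10 Müller glia genes 1 was in the P21 table and none at P2. At P21 5 of 10 pigment epithelium genes were listed, and their summed level was 33.0 and 28.7 FPKM in CrxRip/+, 28.7 and 44.5 in CrxRip/Rip, and 61.0 and 37.9 in Crx-/-. It was 36.7 and 27.1 FPKM in Nrl-/- and 7.4 and 14.9 in wild type. Its part in the results on Nxnl1 and Nxnl2 was not tested.

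At P2, when rods are still being born, both genes were lower in each of the 4 mutants than in wild type, and they differed in which mutant was lowest. Nxnl1 was lowest without Nrl and Nxnl2 was lowest with 2 copies of CrxRip. Nxnl1 was at 1.5 and 1.7 FPKM in CrxRip/+, 0.5 and 0.7 in CrxRip/Rip, 0.7 and 1.2 in Crx-/- and 0.1 and 0.1 in Nrl-/-, against 4.3 and 3.3 in wild type. All 8 mutant samples were below both wild-type samples, and both Nrl-/- samples stood at the smallest step the rounding allows. Nxnl2 was at 3.5 and 4.2 FPKM in CrxRip/+, 0.3 and 0.5 in CrxRip/Rip, 4.3 and 4.1 in Crx-/- and 5.6 and 6.5 in Nrl-/-, against 9.6 and 13.4 in wild type. Here too no mutant sample reached the wild-type range, and the CrxRip/Rip samples were far below those of the other genotypes. How many other genes separated in this way was not counted, and all listed genes were selected for a difference.

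**Figure D1:**
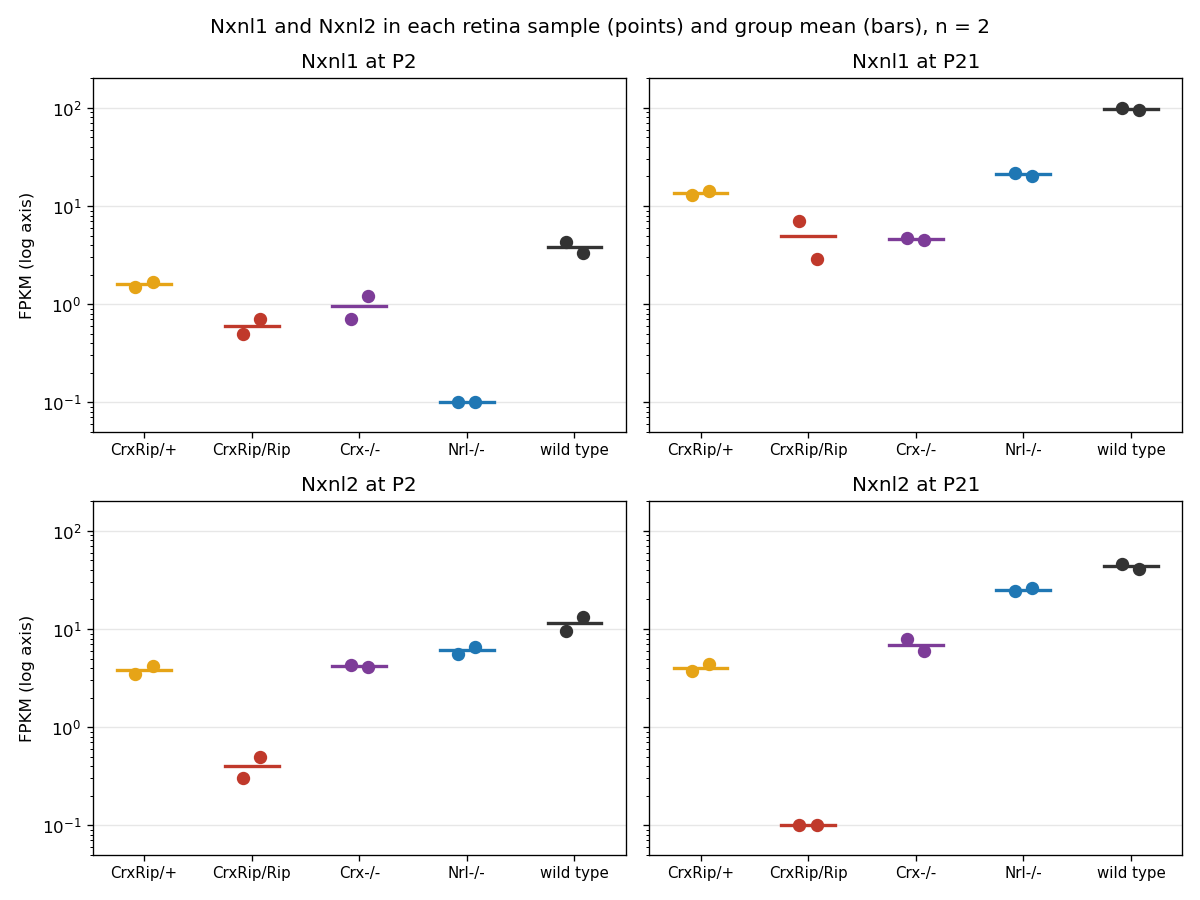
FPKM of Nxnl1 (top) and Nxnl2 (bottom) in each sample at P2 (left) and P21 (right), on a log axis, with points for samples and bars for the mean of 2. Wild type was highest in every panel, Nxnl1 reached 0.1 FPKM in Nrl-/- at P2, and Nxnl2 reached 0.1 FPKM in CrxRip/Rip at P21.

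In CrxRip/+ at P2 the mean of Nxnl1 was 42.1% of that in wild type and its change was -0.88 (adjusted p = 0.00695, 95% confidence interval -1.24 to -0.51). Nxnl2 was at 33.5% of wild type and changed by -1.35 (adjusted p = 0.000766, interval -1.71 to -0.99). Both genes were called lower, where 12.7% of all genes of the table were. In CrxRip/Rip Nxnl1 was at 15.8% of wild type (-1.58, adjusted p = 0.000105) and Nxnl2 at 3.48% (-3.15, adjusted p = 3.46e-06), with 21.2% of all genes called lower. Ordered from the lowest, the Nxnl2 change was number 3 of the 566 genes in CrxRip/Rip and that of Nxnl1 number 35. With 0.1 in place of the added 1, the Nxnl1 change in CrxRip/Rip was -2.48.

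In Crx-/- at P2 the changes of the 2 genes were close to each other, -1.30 for Nxnl1 (25% of wild type, adjusted p = 0.000793) and -1.25 for Nxnl2 (36.5% of wild type, adjusted p = 0.000926). Genes called lower made up 20.7% of the table, and the table as a whole had 52 genes higher and 117 lower, whereas median-of-ratios scaling gave 86 and 57. In Nrl-/- Nxnl1 was at 2.63% of wild type (-2.12, adjusted p = 1.89e-05) and Nxnl2 at 52.6% (-0.81, adjusted p = 0.00129). The background was high here, since 64.7% of all genes were called lower and the median change of the table was -0.76. Relative to that median Nxnl1 was lower by a further -1.35 and Nxnl2 by -0.05. Rescaling by the median of ratios moved the table median by 0.72 and gave 188 genes higher and 96 lower in place of 107 and 366. After it the Nxnl2 change had the opposite sign (0.14, adjusted p = 0.512), while Nxnl1 was still called (-1.81, adjusted p = 2.55e-05). The size factors came from 555 genes of this table, which lists only genes selected for a difference. Such scaling takes most genes as unchanged, so it cannot show which of the scales is right here. With 0.1 in place of the added 1 the Nxnl1 change was -4.27. The authors' deposited table has log2 fold changes of -5.4 for Nxnl1 and -0.78 for Nxnl2 in this comparison, with adjusted p of 1.15e-86 and 1e-05. Over the other 3 genotypes at P2 this rescaling left both genes called lower.

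At P21, with the photoreceptor layer formed, both genes were again lower in all 4 mutants, and Nrl-/- was the mutant with the highest level of both. Nxnl1 was at 13 and 14.3 FPKM in CrxRip/+, 7.0 and 2.9 in CrxRip/Rip, 4.7 and 4.5 in Crx-/- and 21.8 and 20.4 in Nrl-/-, against 99.4 and 95.6 in wild type. Each mutant group lay far below wild type, and the CrxRip/Rip samples, which differed most from each other, fell on both sides of the Crx-/- samples. Nxnl2 was at 3.7 and 4.4 FPKM in CrxRip/+, 0.1 and 0.1 in CrxRip/Rip, 7.9 and 6.0 in Crx-/- and 24.4 and 25.9 in Nrl-/-, against 46.1 and 41.2 in wild type. None of these 5 groups of 2 samples overlapped another. The share of all listed genes that did the same was not counted, so the separation is a description.

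Against wild type at P21, Nxnl1 in CrxRip/+ was at 14.0% and changed by -2.75 (adjusted p = 3.85e-05), and Nxnl2 was at 9.28% and changed by -3.15 (adjusted p = 4.18e-07). Genes called lower were 35% of the table. In CrxRip/Rip Nxnl1 was at 5.08% of wild type (-4.14, adjusted p = 2.30e-06) and Nxnl2 at 0.229% (-5.34, adjusted p = 1.23e-08), beside 44.3% of genes called lower. In Crx-/- it was Nxnl1 that stood lower relative to wild type, at 4.72% (-4.14, adjusted p = 2.76e-06), with Nxnl2 at 15.9% (-2.50, adjusted p = 9.88e-07) and 41.5% of genes called lower. In Nrl-/- Nxnl1 was at 21.6% (-2.16, adjusted p = 0.000146) and Nxnl2 at 57.6% (-0.77, adjusted p = 0.000912), while 31.8% of genes were called lower. The 4 comparisons at an age share the same wild-type samples. Rescaling by the median of ratios shifted the table medians by -0.17 to 0.07 at P21 and left both genes called lower in all 4. The authors' deposited table gives log2 fold changes of -3.05, -4.53, -4.63 and -2.31 for Nxnl1 in CrxRip/+, CrxRip/Rip, Crx-/- and Nrl-/-, and of -3.69, -8.85, -2.88 and -0.91 for Nxnl2.

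**Figure D2:**
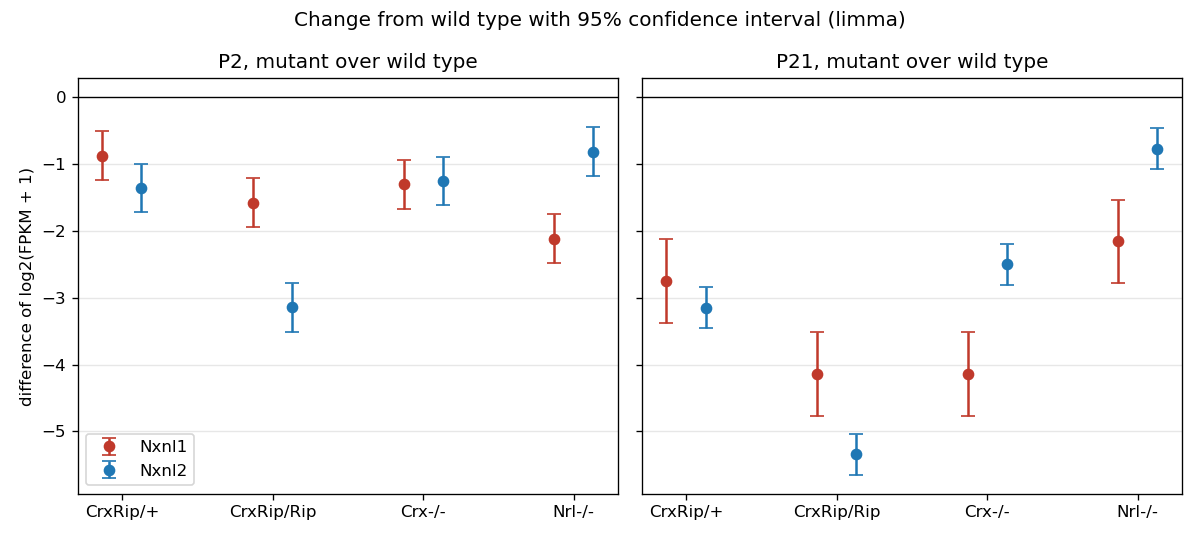
Change from wild type (difference of log2(FPKM + 1), vertical axis) of Nxnl1 and Nxnl2 in the 4 mutants at P2 (left) and P21 (right), with points for the limma estimate and bars for its 95% confidence interval. All intervals lie below 0, and in CrxRip/Rip Nxnl2 stood lower than Nxnl1 at both ages (-3.15 and -1.58 at P2).

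Both genes were lower with 2 copies of CrxRip than with 1. CrxRip/Rip was below CrxRip/+ for Nxnl2 at P2 (10.4% of the CrxRip/+ mean, -1.79, adjusted p = 0.000521) and at P21 (2.47%, -2.20, adjusted p = 2.09e-05). With 0.1 in place of the added 1 these changes were -3.01 and -4.37. For Nxnl1 the mean in CrxRip/Rip was 37.5% of that in CrxRip/+ at P2 (-0.70, adjusted p = 0.0206) and 36.3% at P21 (-1.39, adjusted p = 0.00396). Genes called in either direction were 14.1% of the table at P2 and 47% at P21. The Nxnl1 calls were less stable than those of Nxnl2. At P2 Nxnl1 was not called without CrxRip/+ replicate 1 (adjusted p = 0.0647), CrxRip/+ replicate 2 (0.125) or CrxRip/Rip replicate 1 (0.0744), and its change was -1.29 with 0.1 in place of the added 1. At P21 it was not called with only these 4 samples in the fit (adjusted p = 0.0891), and without CrxRip/Rip replicate 2 its change was -0.87.

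CrxRip/Rip and Crx-/- retinas had different levels of Nxnl2, and the 2 genes did not go together in this respect. CrxRip/Rip had 0.3 and 0.5 FPKM of Nxnl2 against 4.3 and 4.1 in Crx-/- at P2 (-1.90, adjusted p = 5.12e-05), and 0.1 and 0.1 against 7.9 and 6.0 at P21 (-2.84, adjusted p = 1.30e-06). With 0.1 in place of the added 1 these changes were -3.13 and -5.13. Nxnl1 was not called between CrxRip/Rip and Crx-/-, at P2 (-0.28, adjusted p = 0.192, interval -0.64 to 0.09) or at P21 (-0.00346, adjusted p = 1, interval -0.63 to 0.62). The P21 comparison rests on 2 unlike CrxRip/Rip samples, since without replicate 1 (7.0 FPKM) the change was -0.52 and without replicate 2 (2.9 FPKM) it was 0.51. Either fit also drops the spread between these 2 samples, so only the size of the change is given. The P2 change of Nxnl1 was -0.46 without Crx-/- replicate 1, -0.09 without Crx-/- replicate 2 and -0.56 with 0.1 in place of the added 1, none of them called. Genes called in either direction were 41.3% of the table at P2 and 53.4% at P21.

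With a single copy of CrxRip the 2 genes went opposite ways relative to Crx-/- at P21. Nxnl1 was higher in CrxRip/+, at 13 and 14.3 FPKM against 4.7 and 4.5 in Crx-/- (1.39, adjusted p = 0.00308). Nxnl2 was lower in CrxRip/+, at 3.7 and 4.4 FPKM against 7.9 and 6.0 in Crx-/- (-0.65, adjusted p = 0.00387), and 52.6% of the table was called in either direction. At P2, where 28.6% was called, neither gene was, with changes of 0.43 for Nxnl1 (adjusted p = 0.0801, interval 0.06 to 0.79) and -0.10 for Nxnl2 (adjusted p = 0.637, interval -0.47 to 0.26). The Nxnl1 change was 0.24 without Crx-/- replicate 1 and 0.73 with 0.1 in place of the added 1, and that of Nxnl2 was 0.00027 without CrxRip/+ replicate 1, -0.21 without CrxRip/+ replicate 2 and -0.20 after median-of-ratios scaling, all uncalled.

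Set against Nrl-/-, the 3 Crx mutants had less Nxnl2 at both ages, but their Nxnl1 was higher at P2 and, as far as called, lower at P21. At P2 Nxnl1 stood at 1.5 and 1.7 FPKM in CrxRip/+ (1.24, adjusted p = 0.000136), 0.5 and 0.7 in CrxRip/Rip (0.54, adjusted p = 0.0115) and 0.7 and 1.2 in Crx-/- (0.81, adjusted p = 0.00173), against 0.1 and 0.1 in Nrl-/-. With 0.1 in place of the added 1 these were 3.09, 1.79 and 2.35. The median changes of the whole P2 table over Nrl-/- were 0.75, 0.70 and 0.57 in CrxRip/+, CrxRip/Rip and Crx-/-. The CrxRip/Rip difference was not called after rescaling by the median of ratios (0.39, adjusted p = 0.0673) or without CrxRip/Rip replicate 2 (0.45, adjusted p = 0.058). At P21 Nxnl1 was lower in CrxRip/Rip (-1.98, adjusted p = 0.000306) and Crx-/- (-1.98, adjusted p = 0.000308) than in Nrl-/-. For CrxRip/+ it was not called (-0.59, adjusted p = 0.106, interval -1.22 to 0.03), although it was with only these 4 samples in the fit (adjusted p = 0.0163).

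Nxnl2 differed from Nrl-/- at P21 by -2.38 in CrxRip/+ (adjusted p = 5.63e-06), by -4.57 in CrxRip/Rip (adjusted p = 7.39e-08) and by -1.73 in Crx-/- (adjusted p = 1.53e-05). At P2 it differed by -0.54 in CrxRip/+ (adjusted p = 0.0107), by -2.33 in CrxRip/Rip (adjusted p = 7.75e-06) and by -0.44 in Crx-/- (adjusted p = 0.0308). Genes called in either direction were 85.7%, 89.2% and 78.8% of the table at P2 for CrxRip/+, CrxRip/Rip and Crx-/-, and 48.8%, 66.8% and 65.1% at P21. The smaller P2 differences depended on single samples and on the scale. The CrxRip/+ difference was not called without CrxRip/+ replicate 1 (adjusted p = 0.068) or Nrl-/- replicate 2 (0.0719). The Crx-/- difference was not called without Crx-/- replicate 1 (adjusted p = 0.0832), Crx-/- replicate 2 (0.113) or Nrl-/- replicate 2 (0.157), nor with 0.1 in place of the added 1 (0.0629). Rescaling by the median of ratios gave -1.40 for CrxRip/+ and -1.20 for Crx-/-. For CrxRip/Rip the P2 and P21 changes were -3.65 and -6.98 with 0.1 in place of the added 1.

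The order of the levels therefore differed between the genes. From high to low, Nxnl1 at P2 ran wild type, CrxRip/+, Crx-/-, CrxRip/Rip and Nrl-/-, where CrxRip/+ and Crx-/- were not called against each other, nor Crx-/- and CrxRip/Rip. At P21 the Nxnl1 order was wild type, Nrl-/-, CrxRip/+, CrxRip/Rip and Crx-/-, with no call between Nrl-/- and CrxRip/+ or between CrxRip/Rip and Crx-/-. By its means Nxnl2 had the order wild type, Nrl-/-, Crx-/-, CrxRip/+ and CrxRip/Rip at both ages, and only Crx-/- and CrxRip/+ at P2 were neighbours without a call. The place of Nrl-/- at P2 depended on the processing. After median-of-ratios scaling Nxnl2 in Nrl-/- was 0.14 over wild type (adjusted p = 0.512), and Nxnl1 in CrxRip/Rip over Nrl-/- was not called (0.39, adjusted p = 0.0673). With 0.1 in place of the added 1, Nxnl2 in Crx-/- over Nrl-/- was not called (-0.51, adjusted p = 0.0629).

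The balance of the 2 genes within a sample also differed between genotypes. FPKM is per transcript length, so the levels of the 2 genes can be set side by side, although lengths and splice forms enter. At P2 the ratio of Nxnl1 to Nxnl2 FPKM was 0.429 and 0.405 in CrxRip/+, 1.67 and 1.4 in CrxRip/Rip, 0.163 and 0.293 in Crx-/- and 0.0179 and 0.0154 in Nrl-/-, against 0.448 and 0.246 in wild type. Nxnl2 was thus the more abundant gene in all samples at P2 except the CrxRip/Rip pair. At P21 the ratio was 3.51 and 3.25 in CrxRip/+, 70.0 and 29.0 in CrxRip/Rip, 0.595 and 0.75 in Crx-/- and 0.893 and 0.788 in Nrl-/-, against 2.16 and 2.32 in wild type. The samples of Crx-/- and Nrl-/- lay below 1 and those of the other genotypes above it. The CrxRip/Rip ratios at P21 and the Nrl-/- ratios at P2 each hold a value of 0.1 FPKM, so the rounding makes them imprecise. The CrxRip/Rip ratios at P2, from 0.5 over 0.3 and 0.7 over 0.5 FPKM, are also limited by it. No test was made of the ratio, which is given as a description.

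**Figure D3:**
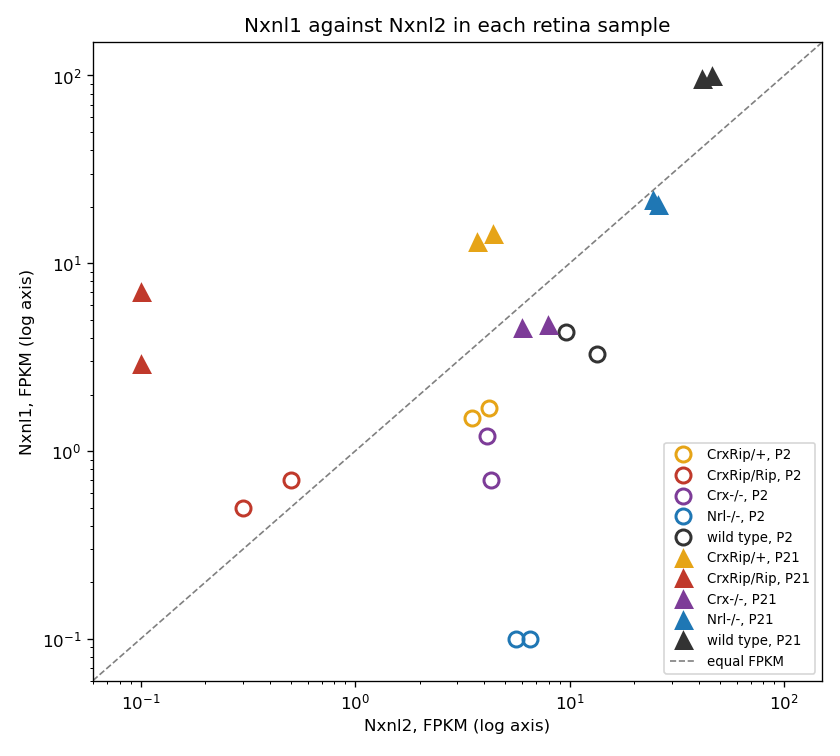
Nxnl1 FPKM (vertical) against Nxnl2 FPKM (horizontal) in each of the 20 samples, both on log axes, with open circles for P2, filled triangles for P21, colours for genotypes and a dashed line for equal FPKM. The CrxRip/Rip samples at P21 sit at 0.1 FPKM of Nxnl2 with 7.0 and 2.9 FPKM of Nxnl1, and the Nrl-/- samples at P2 sit at 0.1 FPKM of Nxnl1 with 5.6 and 6.5 FPKM of Nxnl2.

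Between the ages the 2 genes were also unlike. The tables of the ages were deposited separately and no test was made across them, so these are ratios of mean FPKM from P21 to P2. Nxnl1 was 8.53 times as high at P21 as at P2 in CrxRip/+, 8.25 times in CrxRip/Rip, 4.84 times in Crx-/- and 25.7 times in wild type. In Nrl-/- the ratio was 211, with the P2 mean at 0.1 FPKM and the P21 mean at 21.1, a ratio that the rounding of the P2 value makes imprecise. Nxnl2 was 1.05 times as high in CrxRip/+, 0.25 times in CrxRip/Rip, 1.65 times in Crx-/-, 4.16 times in Nrl-/- and 3.80 times in wild type.

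Both genes were placed among the photoreceptor genes of the lists, to see whether their values went with rod or with cone genes. In Nrl-/- at P21 all 14 cone genes were called higher, with a median change of 3.33, and all 15 rod genes lower, with a median of -5.04, beside a median of 0.17 over all genes and 40.4% called higher and 31.8% lower. The rod list holds Nrl itself, the gene deleted here, and the median of the other 14, a count added after the values were seen, was -4.75. Both Nxnl1 (-2.16) and Nxnl2 (-0.77) lay below each of the 14 cone genes. Nxnl1 lay within the range of the rod genes, with 10 of the 14 other than Nrl lower, while all 14 were lower than Nxnl2. The 26 listed photoreceptor genes that rods and cones share had a median of -0.78 in Nrl-/-. Of these, 3 were lower and 23 higher than Nxnl1, whereas 13 were lower and 13 higher than Nxnl2. In Crx-/- at P21 the rod median was -2.39, close to Nxnl2 (-2.50), while only 4 of 15 rod genes and 2 of 14 cone genes changed more than Nxnl1 (-4.14) in the negative direction. In CrxRip/Rip Nxnl2 (-5.34) was lower than 24 of 26 photoreceptor genes that rods and cones share, whose median was -2.93. Nxnl1 (-4.14) was lower than 19 of them. In CrxRip/+ the changes of Nxnl1 and Nxnl2 were lower than those of 22 and 23 of the 26 shared genes, whose median was -1.53. The lists were written by hand, and members are counted among genes already selected for a difference.

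**Figure D4:**
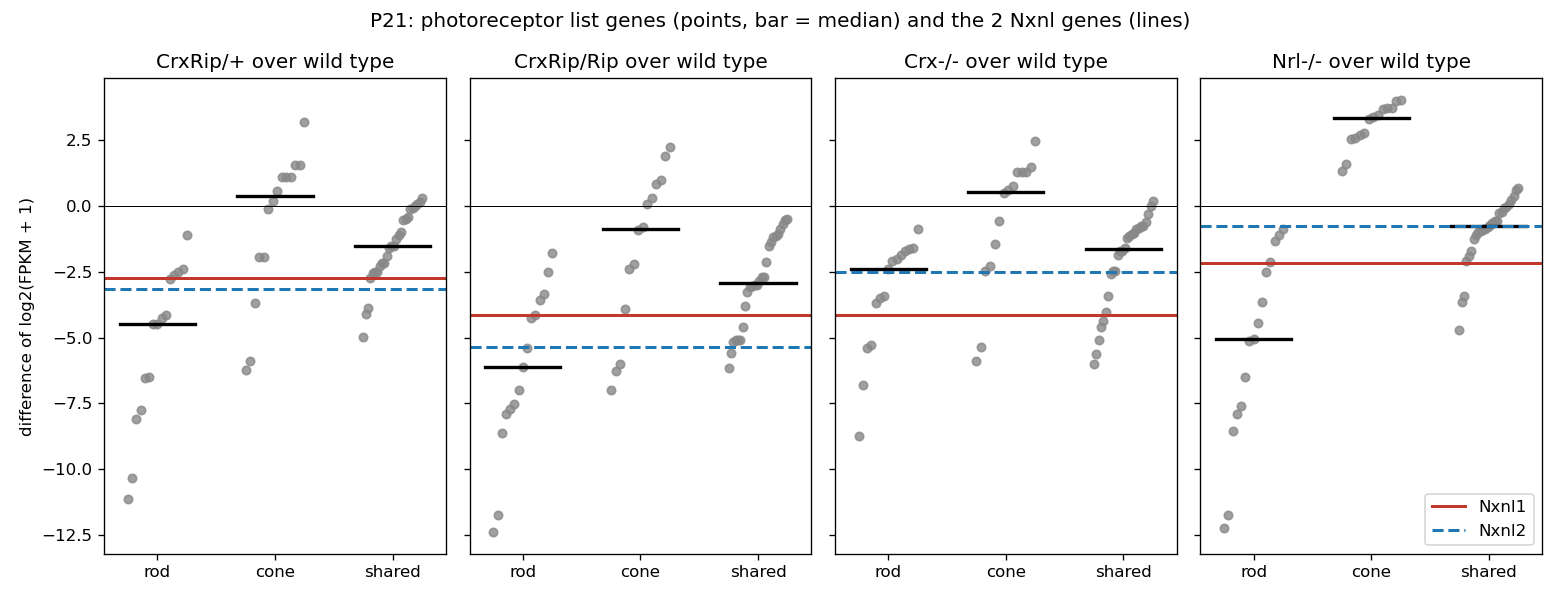
Change from wild type at P21 (difference of log2(FPKM + 1), vertical axis) of rod, cone and shared photoreceptor genes in the 4 mutants, with grey points for genes, black bars for list medians and lines for Nxnl1 and Nxnl2. In Nrl-/- the Nxnl1 line at -2.16 and the Nxnl2 line at -0.77 lie below all 14 cone genes.

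At P2 in Nrl-/- the 10 listed cone genes had a median change of 0.42 and the 10 rod genes one of -3.11, beside -0.76 over all genes. Without Nrl the rod median was -3.02. Both Nxnl genes again lay below every listed cone gene, and of the 9 rod genes other than Nrl 7 lay below Nxnl1 and 8 below Nxnl2. Of the 14 listed genes that rods and cones share, 2 lay below Nxnl1 and 8 below Nxnl2, with a median of -1.02. The added 1 limits how far a low gene can fall on this scale. Nxnl1 went from a mean of 3.8 FPKM in wild type to 0.1 in Nrl-/-, which is 2.63%. Its change was -4.27 with 0.1 in place of the added 1, so its place among the rod genes depends on the scale. In CrxRip/Rip at P2 all 10 rod and all 10 cone genes listed were called lower, beside 21.2% of all genes. Nxnl2 (-3.15) changed more than every one of the 10 rod genes and the 14 shared genes there, and more than 9 of the 10 cone genes. In Crx-/- at P2 the rod median was -0.16 and the cone median 0.04, and Nxnl1 (-1.30) and Nxnl2 (-1.25) were both lower than 9 of 10 rod genes and 8 of 10 cone genes. The summed level of the listed rod genes was 358.6 and 414.4 FPKM in Crx-/- at P2, against 373.2 and 456.5 in wild type, and 4 of the 10 were called lower, beside 20.7% of all genes. At P21 this sum over 15 genes was 990.6 and 896.3 FPKM in CrxRip/+, 489.5 and 499.6 in CrxRip/Rip, where Cnga1 and Nr2e3 were listed at 0, and 1713 and 1500 in Crx-/-. It was 1800 and 1761 FPKM in Nrl-/-, with Cnga1 again at 0, and 20510 and 19300 in wild type. The summed level of the 14 cone genes at P21 was 1110 and 1203 FPKM in CrxRip/+, 497.5 and 583.1 in CrxRip/Rip, 1028 and 907.7 in Crx-/- and 7280 and 7034 in Nrl-/-, against 836.5 and 776.1 in wild type. The part of these sums in the Nxnl1 and Nxnl2 values was not tested.

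The genes whose profile was most like that of each Nxnl gene were taken by Pearson's r of log2(FPKM + 1) over the 10 samples of an age, among genes with a mean of at least 5 FPKM in a genotype. The samples fall into genotype groups and share libraries with both genes compared, so r is a description. For Nxnl1 at P2 these were Slc17a7, the vesicular glutamate transporter of photoreceptor synapses (r = 0.964), Lrit2 (0.962), the rod endoplasmic reticulum gene Reep6 (0.961), the axonemal gene Rp1l1 (0.928) and Sec14l2 (0.921). Slc17a7 averaged 5.45 FPKM in CrxRip/+, 2.70 in CrxRip/Rip, 3.80 in Crx-/-, 2.00 in Nrl-/- and 7.75 in wild type. For Nxnl2 at P2 they were recoverin (Rcvrn, 0.982), the RNA binding gene Rbm24 (0.974), Podxl (0.965), the inhibitory rod phosphodiesterase subunit Pde6g (0.965) and the thyroid hormone receptor Thrb (0.950). Rcvrn averaged 2.25 FPKM in CrxRip/+, 0.3 in CrxRip/Rip, 2.75 in Crx-/-, 5.30 in Nrl-/- and 7 in wild type. It was picked for its likeness to Nxnl2 in these samples, so the order of levels that both share is no separate result.

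At P21 Nxnl1 was most like Guca1b, a guanylate cyclase activator (r = 0.987), Rab43 (0.986), Sntg2 (0.983), Rgs9bp, the anchor of the transducin-inactivating complex (0.983), and Nsun4 (0.980). Guca1b averaged 36.0 FPKM in CrxRip/+, 10.3 in CrxRip/Rip, 9.95 in Crx-/-, 49.5 in Nrl-/- and 537.8 in wild type. Nxnl2 was most like the arrestin gene Sag (0.988), Paqr4 (0.987), the photoreceptor phosphatase Ppef2 (0.982), Cabp4, a calcium sensor of the photoreceptor synapse (0.979), and the syntaxin gene Stx3. Cabp4 averaged 15.85 FPKM in CrxRip/+, 2.10 in CrxRip/Rip, 12.4 in Crx-/-, 37.35 in Nrl-/- and 74.1 in wild type. No gene was among the 5 of both Nxnl genes at an age. The r between Nxnl1 and Nxnl2 themselves was 0.471 at P2 and 0.809 at P21. By likeness to Nxnl1, Nxnl2 ranked 190 of 320 genes at P2 and 264 of 1118 at P21. By likeness to Nxnl2, Nxnl1 ranked 66 of 320 and 159 of 1118. Both Nxnl genes were kept in these rankings whatever their level. The highest mean of Nxnl1 at P2 was 3.8 FPKM, in wild type, which is under the minimum set for the other genes.

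Of the pathway in which RdCVF acts, Bsg (basigin) and Slc2a1 (GLUT1) were in neither table and were not analysed here. Of 31 genes of glycolysis and lactate transport 6 were in the P21 table, and all 6 fell in CrxRip/+, CrxRip/Rip and Crx-/-, with medians of -0.77, -1.56 and -0.85 beside 0.13, -0.14 and -0.04 over all genes, of which 35%, 44.3% and 41.5% were called lower. In Nrl-/- 4 of 6 fell (median -0.53, beside 0.17 over all genes, with 31.8% called lower). Rescaling by the median of ratios left these counts as they were. Pfkfb2, which makes the activator of phosphofructokinase, was at 17.7 ± 0.99 FPKM in CrxRip/+, 12.2 ± 0.71 FPKM in CrxRip/Rip, 11.3 ± 0.57 FPKM in Crx-/- and 22.9 ± 0.14 FPKM in Nrl-/-, against 92.6 ± 1.84 in wild type (SD, n = 2). It fell in all 4, with changes of -2.32, -2.83, -2.93 and -1.97 (largest adjusted p = 3.88e-07).

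Hk2, the hexokinase of photoreceptors, had its lowest mean in CrxRip/Rip and its highest mutant mean in Nrl-/-, like Nxnl2 and most of the listed genes of glycolysis and lactate transport. Unlike Nxnl2, Hk2 had a higher mean in CrxRip/+ than in Crx-/-. It was at 24.9 ± 4.67 FPKM in CrxRip/+, 4.95 ± 0.35 FPKM in CrxRip/Rip, 13.65 ± 1.2 FPKM in Crx-/- and 53.9 ± 8.06 FPKM in Nrl-/-, against 59.8 ± 16.8 in wild type (SD, n = 2). It changed by -1.22 (adjusted p = 0.000817), -3.33 (1.68e-06) and -2.03 (3.21e-05) in the Crx mutants, while in Nrl-/- the change of -0.13 was not called (adjusted p = 0.597). Hk1, the other neuronal hexokinase, changed by -0.68 (adjusted p = 0.00019), -1.85 (3.87e-07), -0.67 (0.00015) and -0.87 (4.09e-05) in CrxRip/+, CrxRip/Rip, Crx-/- and Nrl-/-. The lactate dehydrogenase gene Ldha was at 356.4 ± 17.5 FPKM in Nrl-/- in P21 retinas, with 411.5 ± 16 FPKM in wild type, a difference without a call (adjusted p = 0.529). At P2 only Hk2 and the lactate carrier gene Slc16a3 of this list were present, and both fell in Nrl-/-, where 64.7% of all genes were called lower and the table median was -0.76. Hk2 was also called lower at P2 in CrxRip/Rip (-0.36, adjusted p = 0.0399) and Crx-/- (-0.50, adjusted p = 0.0126), where Slc16a3 was not. In these 2 genotypes 21.2% and 20.7% of all genes were called lower. Slc16a3 was at 1.75 ± 0.49 FPKM in Nrl-/- against 18.35 ± 4.03 in wild type at P2 (-2.81, adjusted p = 7.002e-06).

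**Figure D5:**
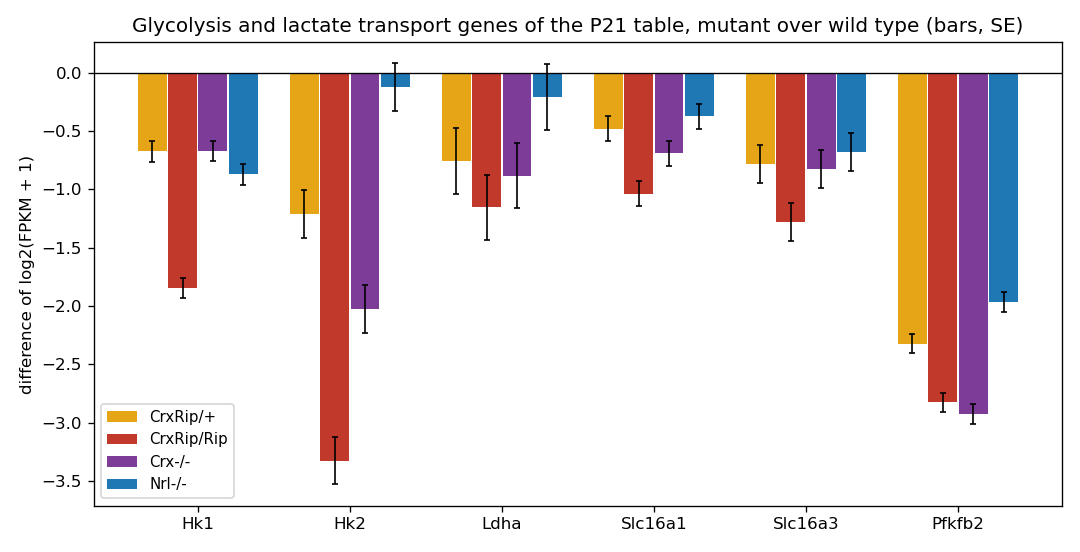
Change from wild type at P21 (difference of log2(FPKM + 1), vertical axis) of the 6 listed genes of glycolysis and lactate transport in the 4 mutants, with bars for the limma estimate and whiskers for its SE. In Nrl-/- the Hk2 bar is at -0.13, whereas the Pfkfb2 bars run from -1.97 to -2.93.

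Of 56 genes of thioredoxin and peroxide defence 6 were in the P21 table, and they did not go one way. They were higher in 2 and lower in 2 for CrxRip/+ and CrxRip/Rip, higher in 2 and lower in 3 for Crx-/-, and higher in 1 and lower in 1 for Nrl-/-. In Nrl-/- a second gene was lower once median-of-ratios scaling was applied. Over all genes 39.5%, 36.3%, 39.8% and 40.4% were called higher in CrxRip/+, CrxRip/Rip, Crx-/- and Nrl-/-, and 35%, 44.3%, 41.5% and 31.8% lower. Pdia5, a protein disulfide isomerase with thioredoxin folds, was at 1.30 ± 0.14 FPKM in CrxRip/+, 0.95 ± 0.21 FPKM in CrxRip/Rip, 1.10 ± 0.14 FPKM in Crx-/- and 1.20 ± 0.14 FPKM in Nrl-/-, against 9.60 ± 0.28 in wild type (SD, n = 2). It fell in all 4, with changes of -2.21, -2.45, -2.34 and -2.27 (largest adjusted p = 1.10e-06). Txndc5, another thioredoxin-domain isomerase of the endoplasmic reticulum, rose in CrxRip/+ (1.02, adjusted p = 9.89e-05), CrxRip/Rip (0.69, adjusted p = 0.000727) and Nrl-/- (1.16, adjusted p = 4.36e-05) and fell in Crx-/- (-0.32, adjusted p = 0.0337). Gpx4, the glutathione peroxidase that protects membrane lipids, fell in CrxRip/+ (-0.53, adjusted p = 0.00559), CrxRip/Rip (-0.78, adjusted p = 0.000561) and Crx-/- (-0.72, adjusted p = 0.000849). It was at 25.85 ± 3.32 FPKM in Nrl-/- against 30.8 ± 2.83 in wild type, which was not called (adjusted p = 0.114). At P2 2 of the 56 were listed. Nfe2l2, which encodes the oxidative stress factor NRF2, was at 2.10 FPKM in both Nrl-/- samples against 4.90 ± 0.57 in wild type and fell by 0.93 (adjusted p = 6.75e-05), beside a table median of -0.76. Hmox1, the heme oxygenase gene induced by oxidative stress, rose in Nrl-/- (0.41, adjusted p = 0.0297) and in Crx-/- (0.78, adjusted p = 0.00672) at P2. In Crx-/- Nfe2l2 fell (-0.44, adjusted p = 0.0183). Genes called higher at P2 were 3.71%, 5.83%, 9.19% and 18.9% of the table in CrxRip/+, CrxRip/Rip, Crx-/- and Nrl-/-.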

How the data were processed

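FPKM were deposited by the authors in 1 table per age, rounded to 1 decimal per the file headers and values, with the authors' mean FPKM per genotype. The deposited tables also hold the authors' p-values (adjusted, per the file headers) and their fold changes, which by their values are on a log2 scale. DESeq is the tool in the submitters' processing notes, with no version. Neither the aligner nor the counter, the build or the annotation is given in the sources used here. In at least 1 of the authors' comparisons, adjusted p was under 0.05, the absolute log2 fold change 1 or more and a genotype mean 2 FPKM or more for 566 of 566 genes at P2 and 1497 of 1497 at P21. Columns were matched to samples by title.

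With limma 3.58.1 in R 4.3.3, a model was fitted to log2(FPKM + 1) of the 10 samples of an age, with 1 term per genotype, a variance trend and no filter. There were 10 comparisons per age, with two-sided p adjusted by Benjamini-Hochberg over the table per comparison. The procedure was tested on simulated data. Depth is unknown, so no counting interval was made. Alternatives were a pseudocount of 0.1 or 0.5, a minimum of 1 FPKM, median-of-ratios scaling, no variance trend, only the compared genotypes, a replicate block, and leaving out 1 sample. Replicate numbers did not pair samples (r of deviations -0.24 to 0.33 at P2 and -0.30 to 0.24 at P21). The members and the gene lists were chosen with earlier results of these data known. Genes named from a list were at most 4 called with the largest change and 2 uncalled with the highest mean, and the 5 most similar genes per member and age. Ldha and Gpx4, and Slc16a1 in a plot, were chosen after their values were seen.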

Additional observations from a re-analysis of the deposited data

Results flagged for a closer look

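Relative to Nrl-/-, the 3 Crx mutants had more Nxnl1 at P2 and less Nxnl1 at P21, so the sign of the difference turned between the ages. The change over Nrl-/- was 1.24 at P2 and -0.59 at P21 for CrxRip/+, 0.54 and -1.98 for CrxRip/Rip, and 0.81 and -1.98 for Crx-/-. These share the Nrl-/- samples. The P2 table as a whole also lay above Nrl-/-, with medians of 0.75, 0.70 and 0.57 for CrxRip/+, CrxRip/Rip and Crx-/-. Genes called in either direction were 85.7%, 89.2% and 78.8% of that table. The P2 change of Nxnl1 in CrxRip/Rip lay below its table median. After median-of-ratios scaling it was 0.39 and not called (adjusted p = 0.0673). The P21 value for CrxRip/+ was not called, and the turn itself was not tested.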

How the results depend on the processing

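The change of each Nxnl gene in 10 comparisons per age gave 40 results. All differences from wild type kept their direction and call under every alternative, except Nxnl2 in Nrl-/- at P2. Rescaling by the median of ratios turned that to 0.14 and Nxnl1 of CrxRip/Rip over Crx-/- at P21 to 0.14, and it ended the call of Nxnl1 in CrxRip/Rip over Nrl-/- at P2 (0.39). A pseudocount of 0.1 ended that of Nxnl2 in Crx-/- over Nrl-/- at P2 (-0.51). With only the 2 genotypes fitted, Nxnl1 at P21 lost its call in CrxRip/Rip over CrxRip/+ (-1.39) and gained one in CrxRip/+ over Nrl-/- (-0.59). The other settings that kept all samples, with the replicate block among them (as for Nxnl1 in CrxRip/+ over wild type at P2, -0.88), changed no call. The minimum of 1 FPKM removed no gene. Calls or signs did change on leaving out 1 sample, in the comparisons whose ranges follow. Leaving out 1 sample gave a range of -0.79 to -0.61 for Nxnl1 in CrxRip/Rip over CrxRip/+ at P2, -0.21 to 0.00027 for Nxnl2 in CrxRip/+ over Crx-/- at P2, -0.53 to -0.34 and -0.64 to -0.44 for Nxnl2 in Crx-/- and CrxRip/+ over Nrl-/- at P2, 0.45 to 0.63 for Nxnl1 in CrxRip/Rip over Nrl-/- at P2, and -0.52 to 0.51 for Nxnl1 in CrxRip/Rip over Crx-/- at P21. The cause was not tested. A group left with 1 sample was taken to vary like the others.

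Counts of called genes moved by over 1.5 times in some cases, all at P2 but the last. They were 55 without wild-type replicate 2 (93 with it) for CrxRip/+, 72 to 92 without any 1 sample (169) for Crx-/-, and 284 after rescaling (473) for Nrl-/-. Between mutants they were 43 with 2 genotypes and 51 without CrxRip/+ replicate 2 (80) for CrxRip/Rip over CrxRip/+, 78 to 93 without any 1 sample (162) for CrxRip/+ over Crx-/-, 133 with 2 genotypes and 136 without Crx-/- replicate 2 (234) for CrxRip/Rip over Crx-/-, 261 (446) and 308 (485) after rescaling for Crx-/- and CrxRip/+ over Nrl-/-, and 279 with 2 genotypes (703) for CrxRip/Rip over CrxRip/+ at P21. Values of 0.1 FPKM are limited by rounding, and no depth is known.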

Other observations

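Of 21 genes of photoreceptor survival and stress signalling 10 were in the P21 table, and none was called lower in any mutant there. Of these 10, 7 rose in CrxRip/+ (6 with median-of-ratios scaling), 2 in CrxRip/Rip (3 with that scaling), 8 in Crx-/- and 5 in Nrl-/-, where a pseudocount of 0.1 gave 8 and a fit of the 2 genotypes alone 9. Over all genes 39.5%, 36.3%, 39.8% and 40.4% were called higher in these genotypes, and 35%, 44.3%, 41.5% and 31.8% lower. The list had medians of 1.26, 0.14, 1.21 and 0.80 against 0.13, -0.14, -0.04 and 0.17 over all genes. At P2 only Socs3 and Gfap of the list were present, and Gfap was uncalled in all 4 mutants. Socs3 was called lower at P2 in CrxRip/+ (-0.51, limma adjusted p = 0.0301) and CrxRip/Rip (-0.55, adjusted p = 0.01265). In these 2 genotypes 12.7% and 21.2% of the P2 genes were called lower. Gene values that follow are from P21. Gfap, the intermediate filament of reactive glia, was at 18.55 ± 3.89 FPKM (SD, n = 2) in CrxRip/+, 7.55 ± 1.48 FPKM in CrxRip/Rip, 25.7 ± 1.56 FPKM in Crx-/- and 9.15 ± 0.64 FPKM in Nrl-/-, against 4.1 ± 0.57 FPKM in wild type, and rose in all 4 (1.93, 0.74, 2.39 and 1.00 on the log2 scale, largest adjusted p = 0.00357 by limma). Serpina3n, a protease inhibitor of reactive astrocytes and Müller glia, rose in CrxRip/+ (1.68, adjusted p = 0.00336) and Crx-/- (2.16, adjusted p = 0.000664), and it was at 0.8 FPKM in CrxRip/Rip and 1.70 in Nrl-/- against 1.00 in wild type, both uncalled. Of 10 microglia genes the 2 listed at P21, C1qa and C1qc, rose in CrxRip/+ (0.81 and 0.82) and Crx-/- (0.65 and 0.83) and were uncalled in CrxRip/Rip and Nrl-/-. Their summed level was 6.4 and 12.9 FPKM in CrxRip/+, 4.3 and 3.4 FPKM in CrxRip/Rip, 9.3 and 7.9 FPKM in Crx-/- and 8.2 and 5.3 FPKM in Nrl-/-, against 4.1 and 4.6 FPKM in wild type, and its part in the stress gene values was not tested.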
